A study of Rattus norvegicus with 6 samples.

Results

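Fibroblasts, macrophages, endothelial cells and natural killer (NK) cells of the rat pancreas were compared between old and young animals, class by class, to find genes that differed alike in several classes. The cells came from male Wistar rats, an outbred stock, with 2 rats in each group and 1 single-cell library per rat. The young rats were 2 months old. The old rats were 20 months old and had been kept on a normal diet since the age of 2 months. By the study's plan the young rats, its baseline group, were killed at its start and the old rats at its end. Age can therefore not be told apart from date of preparation or from differences between single rats. Rats of 20 months given a high-fat, high-fructose (HFHF) diet over the same time, called HFHF-old, are quoted as levels beside the comparison. They entered a fit only in an alternative that used all 6 libraries. In all groups the suspension was prepared for islets, by collagenase P digestion through the bile duct and a density gradient, so the 4 classes are the stromal and immune cells carried along with islets and not a sample of the whole pancreas.

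Members were selected on measured marker UMIs. A cell was a fibroblast if at least 3 of Col1a1, Col1a2, Col3a1, Dcn, Lum and Pdgfra had a unique molecular identifier (UMI, 1 captured transcript) and Ptprc, the gene of the leukocyte antigen CD45, had none. Macrophages needed at least 3 of C1qa, C1qb, C1qc, Csf1r, Cd68 and Ms4a7. NK cells needed at least 3 of Ncr1, Klrd1, Nkg7, Prf1 and Gzma, with Cd3e at 0. For endothelium Cdh5, Kdr, Flt1 and Emcn were used, again at least 3, since Pecam1 of the rule was not analysed here. Barcodes that met the rule of more than 1 class (16.3% to 31.4% of the barcodes meeting a rule) were left out, because a barcode counted in 2 classes would make its genes differ alike in both. This left 29459 cells of the 51495 in the young and old libraries and of the 75201 in the series, namely 7033 fibroblasts, 17201 macrophages, 1091 endothelial cells and 4134 NK cells. The removal was uneven between libraries. In young replicate 2 fibroblasts fell from 1172 to 387 and NK cells from 2192 to 754. In old replicate 2 they fell from 2172 to 2113 and from 1230 to 1151. NK cells with a UMI of Cd3d or Cd3g, which belong to T cells, were also uneven. In young replicate 2 only 580 of 754 NK cells had none, against 1566 of 1585 in young replicate 1. In old replicates 1 and 2 these numbers were 629 of 644 and 1108 of 1151. At the limit of the rules, 2917 barcodes had UMIs of 2 fibroblast markers and 2232 of 3, with median depths of 2190 and 2274 UMIs. For macrophages these numbers were 4830 and 3157, for endothelium 743 and 412, and for NK cells 1785 and 2019.

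Fibroblasts build and repair the extracellular matrix, macrophages clear debris and present antigen, endothelial cells line the islet capillaries, and NK cells kill stressed or infected cells. In ageing tissue the literature describes more antigen presentation and inflammatory signalling in immune cells and less collagen synthesis in fibroblasts. Major histocompatibility complex (MHC) genes, called RT1 in the rat, display peptides to T cells, class I on nearly all cells and class II mainly on professional antigen-presenting cells.

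The marker levels follow from the rules that chose the classes and are given as a description only. Summed fibroblast markers stood at 17656 to 30304 CPM (counts per total UMIs, scaled to 1000000) in fibroblasts and at 68.5 to 2200 CPM elsewhere. Macrophage markers stood at 5109 to 9546 CPM in macrophages against at most 155 CPM elsewhere, endothelial markers at 5861 to 7096 against at most 45.1 CPM, and NK markers at 4636 to 5449 against at most 193 CPM. The libraries held 77387928 to 110249441 UMIs, and 2 of them stood apart. In the macrophages of young replicate 2 transcripts of acinar and islet secretory genes made up 23.5% of the UMIs, against 2.72% to 10.8% in the other 3 libraries, and old replicate 2 was shallow, with a median of 1973 UMIs in a fibroblast against 5472 to 8662. Between 20 and 69 cell barcodes, at most 0.604%, were shared by any pair of the 6 libraries.

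Each gene was tested old against young within a class on UMIs summed per rat, with the quasi-likelihood test of edgeR, and counts below as called where the fold change exceeded 1.5 and the p adjusted after Benjamini and Hochberg stayed under 0.05. Levels of the young and old libraries are given below as CPM after scaling by the trimmed mean of M-values (TMM). With 2 rats against 2 an exact permutation test of a single gene cannot go below p = 0.333, so edgeR borrows its estimate of the spread across genes. Few genes passed. In fibroblasts 2 of 12821 genes were called (0.0156%), both higher in old rats, and 847 (6.61%) had an unadjusted p under 0.05. In macrophages 0 of 14833 were called (0%), although 1256 genes (8.47%) had an unadjusted p under 0.05. In endothelium 13 of 9273 were called (0.14%), 11 higher (0.119%) and 2 lower (0.0216%), and 600 (6.47%) had an unadjusted p under 0.05. In NK cells 1 of 11888 was called (0.00841%), a higher one, and 476 (4%) had an unadjusted p under 0.05. DESeq2, run on the same sums, called 140 (1.09%), 243 (1.64%), 47 (0.507%) and 57 (0.479%) genes in the same order of classes. Of these 76 (0.593%), 162 (1.09%), 37 (0.399%) and 32 (0.269%) were higher in old rats, and 64 (0.499%), 81 (0.546%), 10 (0.108%) and 25 (0.21%) lower. The counts also hung on single libraries. Leaving out 1 library at a time, edgeR called 0, 0, 202 and 9 genes in fibroblasts without young replicate 1, young replicate 2, old replicate 1 and old replicate 2, 0, 191, 15 and 49 in endothelium, 14, 7, 0 and 0 in NK cells, and 0 in macrophages each time.

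Of 13369 genes tested in at least 2 classes, edgeR called 1 higher in at least 2 (0.00748%) and 0 lower in at least 2 (0%). The gene called higher was AC127784.2, in fibroblasts and endothelium. Leaving out any 1 library removed it from this count, which became 0 without young replicate 1, 2 without young replicate 2 (RT1-Bb and Slpi), 5 without old replicate 1 (RT1-Bb, Hba-a2, LOC306079, LOC689064 and Sst) and 1 without old replicate 2 (RT1-Bb). At an unadjusted p under 0.05, 206 genes were higher and 228 lower in at least 2 classes, and DESeq2 called 26 higher (0.194%) and 16 lower (0.12%). In at least 3 classes DESeq2 called 9 higher (0.0673%) and 3 lower (0.0224%), the latter being Acta2, the actin of smooth muscle, and Col1a1 and Col3a1, which the fibroblast rule itself used, and in all 4 classes 3 higher (0.0224%), AC127784.2, RT1-A1 and RT1-Bb, and 0 lower. To describe what differed alike beyond the calls, genes were taken whose level in both old libraries lay above, or in both below, both young libraries in all 4 classes. Of the 8805 genes tested in all 4, 56 lay above (0.636%) and 95 below (1.08%). In fibroblasts, macrophages, endothelium and NK cells 17.7%, 18.9%, 17.1% and 12.8% of the genes tested had both old libraries above both young, and 16.1%, 20.2%, 17.5% and 16.6% had both below. The 11 above and 12 below with the largest smallest difference over the classes are described here together with AC127784.2. Since this order chose them, that is, since they were chosen by their levels in these libraries, their separation in the 4 classes is a description and not a test, and the 4 classes of a rat share its library.

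**Figure D1:**
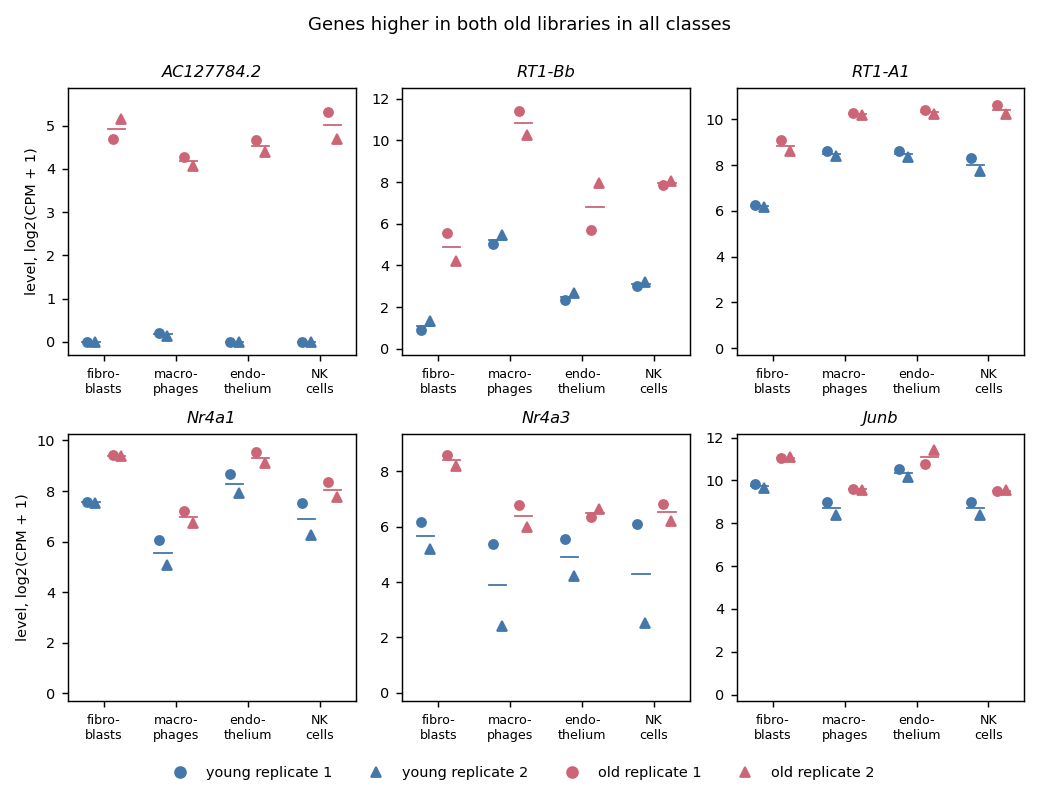
Level of 6 genes in each library (points; circles replicate 1, triangles replicate 2) by class, as log2(CPM + 1) with CPM scaled by TMM; short lines are the means of the 2 libraries of a group. In each class both old libraries lie above both young ones, and the class with the highest level differs between genes.

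AC127784.2, a gene model that the files give without another name, had no UMI in the fibroblasts, endothelium or NK cells of either young rat. In macrophages it stood at 0.154 and 0.101 CPM in the young libraries. The old libraries held 24.7 and 34.6 CPM in fibroblasts, 18.5 and 15.6 CPM in macrophages, 24.6 and 20.0 CPM in endothelium, and 39.1 and 24.8 CPM in NK cells. It was thus close to absent in both young rats and at a like level in all classes of both old rats. Over the 4 classes together 8 UMIs of 104639133 were counted in young rats, or 0.0765 CPM with a 95% Poisson interval of 0.0330 to 0.151 that covers counting error only, and 1571 of 69751044 in old rats. Set against the level that 3 UMIs over the young group would give, the old group was at least 263-fold higher in fibroblasts, at least 22.5-fold in endothelium and at least 175-fold in NK cells. In macrophages, where 8 young UMIs were counted, it was 128-fold higher. By edgeR the adjusted p was 0.0374 in fibroblasts, 0.0486 in endothelium, 0.0625 in macrophages and 0.191 in NK cells. The call held in 11 of 17 alternatives in fibroblasts and in 7 of 17 in endothelium. In fibroblasts it was lost without young replicate 1 (log2 10.46) and without young replicate 2 (log2 11.67), and in endothelium without young replicate 1 (7.53), old replicate 1 (7.73) and old replicate 2 (8.02). These fitted values depend on the prior count where a group is at 0.

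The same pattern stood in the barcodes outside the 4 classes. In secretory-rich barcodes AC127784.2 was at 0.268 and 0.143 CPM in young and 22.4 and 16.3 CPM in old libraries, and in T cells at 0.519 and 0 against 34.1 and 21.3 CPM. These levels, and all those of HFHF-old rats and of barcodes outside the classes below, are scaled by total UMIs alone. HFHF-old rats held 10.3 to 23.4 CPM over the 4 classes. In the 4 classes all 4 rats of 20 months thus held the transcript and both rats of 2 months held almost none. Outside the classes it was examined in young and old libraries only. AC127784.2 has no entry of that name in the RefSeq promoter table, so no sequence is shown for it.

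Antigen-presentation genes came next. RT1-Bb encodes the beta chain of a class II molecule, by which macrophages, dendritic cells and B cells display peptides to T cells, and RT1-A1 a class I heavy chain, carried by nearly all nucleated cells. Their promoters are shown because members of both families were compared here; the capitals mark CCAAT on either strand (ATTGG where it lies on the other strand), the short motif that class II promoters are known to carry in their Y box. The windows hold the 250 bases before the annotated start of transcription, from RefSeq on build GRCr8, at chr20:4604119-4604368 on the minus strand for RT1-Bb and chr20:4906959-4907208 on the plus strand for RT1-A1.

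RT1-Bb: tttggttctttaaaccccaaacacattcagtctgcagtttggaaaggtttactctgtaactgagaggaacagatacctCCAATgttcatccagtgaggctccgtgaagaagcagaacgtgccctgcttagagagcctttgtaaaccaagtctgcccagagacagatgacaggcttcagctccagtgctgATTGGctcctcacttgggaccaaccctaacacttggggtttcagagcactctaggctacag

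RT1-A1: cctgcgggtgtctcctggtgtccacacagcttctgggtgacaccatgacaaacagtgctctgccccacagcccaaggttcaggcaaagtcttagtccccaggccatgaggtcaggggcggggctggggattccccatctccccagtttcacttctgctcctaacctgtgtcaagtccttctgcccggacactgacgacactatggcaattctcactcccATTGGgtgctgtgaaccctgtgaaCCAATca

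Both windows held 2 matches. Among the class II presentation genes with a window 10 of 12 (83.3%) held at least 1 match, and among class I presentation genes 10 of 18 (55.6%), against 34.0% of all 33469 windows. A match is only a run of letters, and no binding was measured.

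Among the 4 classes RT1-Bb was highest in macrophages, at 31.8 and 42.7 CPM in young and 2705 and 1219 CPM in old libraries. In the remaining barcodes of none of the classes it stood higher, at 75.8 and 81.8 against 3121 and 2131 CPM. In barcodes with at least 3 markers of B and plasma cells it stood at 136 and 155 against 306 and 147 CPM. NK cells held 7.04 and 8.36 against 230.3 and 263 CPM, endothelium 4.05 and 5.35 against 50.2 and 245 CPM, and fibroblasts 0.843 and 1.51 against 45.7 and 17.6 CPM. Old and young libraries did not overlap in any class. The log2 difference was 5.72 ± 0.61 (SE) in macrophages, 5.003 ± 0.26 in NK cells, 4.96 ± 0.75 in endothelium and 4.98 ± 0.61 in fibroblasts, close to each other in classes whose levels lay far apart. By edgeR only the difference in NK cells was called (adjusted p = 0.0329). The adjusted p was 0.0851 in endothelium, 0.139 in fibroblasts and 0.247 in macrophages. The call in NK cells held in 11 of 17 alternatives. It was lost, among others, with free RNA subtracted, with large barcodes left out and with the replicate number as a block. Of the libraries left out singly, it was lost without old replicate 1 (log2 5.09) and without old replicate 2 (log2 4.90). Under both of these RT1-Bb was instead called in fibroblasts (log2 4.04 and 5.49) and endothelium (5.70 and 3.42), and without young replicate 2 it was called in endothelium (5.17) as well as in NK cells. DESeq2 called RT1-Bb in all 4 classes.

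Seen within a library, RT1-Bb in fibroblasts amounted to 1.40% to 4.28% of its level in macrophages, and in NK cells to 8.22% to 23.3%. The part of RNA from macrophages or from barcodes outside the classes in these values was not tested. The level was also not shared by the other rats of 20 months. HFHF-old libraries held 0.148 and 0.141 CPM of RT1-Bb in fibroblasts, 53.1 and 471 CPM in macrophages, 0 and 20.3 CPM in endothelium and 2.99 and 2.03 CPM in NK cells. All of these lay below both old libraries of the class, so the level of the old rats was not one of all rats of 20 months. In macrophages both HFHF-old libraries still lay above both young ones, and in endothelium replicate 2 did. The other HFHF-old values lay below both young libraries of the class. HFHF-old and old rats also differed in diet. Differences between single rats of this outbred stock were not tested. Macrophages of HFHF-old replicate 2 numbered 73 and endothelial cells 51 and 61, so their levels rest on few cells.

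The partners of RT1-Bb differed less than RT1-Bb in macrophages, and RT1-Ba did not separate in every class. RT1-Ba, the alpha chain that pairs with it, stood at 783 and 994 CPM in young and 2579 and 1925 CPM in old macrophages. In fibroblasts it stood at 17.9 and 48.7 against 29.5 and 29.6 CPM, and in endothelium at 125 and 122 against 34.6 and 425 CPM, where old and young libraries overlapped. Cd74, the invariant chain that escorts class II molecules, stood at 3984 and 5249 CPM in young and 7628 and 7145 CPM in old macrophages, with a log2 difference of 0.68 ± 0.81. Of 14 class II presentation genes 13 were tested in macrophages, and 13 had a positive difference, with a median of 0.88 on the log2 scale against -0.03 over all genes of the class. In NK cells 10 of 12 were positive (median 0.77), in endothelium 7 of 8 (0.70) and in fibroblasts 3 of 9 (-0.14). Of all genes 46.4% were positive in macrophages, 48.5% in NK cells, 48.7% in endothelium and 52.9% in fibroblasts. Both old libraries lay above both young for 11 of 13 members in macrophages and 9 of 12 in NK cells. In endothelium 2 of 8 did and in fibroblasts 2 of 9. Of all genes 18.9%, 12.8%, 17.1% and 17.7% lay above in that order. Below both young lay 0, 2, 0 and 2 members, against 20.2%, 16.6%, 17.5% and 16.1% of all genes. RT1-Bb in NK cells was the only member called by edgeR. At an unadjusted p under 0.05, 6 members were higher in macrophages and 6 in NK cells. DESeq2 called 5 in macrophages and 1, RT1-Bb, in each other class.

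RT1-A1 stood at 74.9 and 71.0 CPM in young and 551 and 388 CPM in old fibroblasts. In NK cells the values were 315 and 214 against 1565 and 1204 CPM, in macrophages 386 and 338 against 1252 and 1161 CPM, and in endothelium 388 and 325 against 1341 and 1199.8 CPM. The young fibroblasts were thus the lowest of the classes, and all old libraries lay above all young ones of their class. The log2 difference ran from 1.74 ± 0.32 in macrophages to 2.69 ± 0.32 in fibroblasts. The smallest adjusted p by edgeR was 0.139, so RT1-A1 was not called, while DESeq2 called it in all 4 classes. HFHF-old libraries held 62.6 and 136 CPM in fibroblasts and 295 and 318 CPM in NK cells, below both old libraries of the class. RT1-A2, a second class I gene of the same region, stood at 887 and 736 CPM in young and 979.7 and 796 CPM in old macrophages, and overlapped there and in endothelium. In NK cells it stood at 638 and 481 against 1545 and 714 CPM and in fibroblasts at 301 and 251 against 503 and 339 CPM, without overlap, with log2 differences of 1.01 ± 0.44 and 0.61 ± 0.32. Class I genes of the RT1 region are near copies of each other and counts can be divided among them or lost between them, so the level of a single member is uncertain.

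Over 21 class I presentation genes, 20 were tested in each class. In macrophages 13 of 20 had both old libraries above both young (18.9% of all genes did), in NK cells 14 of 20 (12.8%), in fibroblasts 12 (17.7%) and in endothelium 3 (17.1%), and 0 lay below in any class. The median log2 difference was 0.76 in macrophages, 0.66 in fibroblasts, 0.55 in NK cells and 0.04 in endothelium. No member was called by edgeR, and 7, 6, 5 and 1 had an unadjusted p under 0.05 in that order, while DESeq2 called 3, 1, 1 and 1 higher. Tap1 and Psmb8, which load peptides and cut proteins for class I molecules, differed by 0.94 and 0.93 in macrophages and 0.10 and 0.15 in endothelium on the log2 scale. B2m, the light chain of class I, was higher in both old libraries in macrophages and NK cells and overlapped in fibroblasts and endothelium.

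Nr4a1, Nr4a3, Junb and Ell2 were also among the genes separated in all 4 classes. Nr4a1 and Junb are on the list of immediate early genes, while Nr4a3 and Ell2 are not. Immediate early transcription starts within minutes of a stimulus, tissue digestion included, without new protein synthesis. Nr4a1 and Nr4a3 are orphan nuclear receptors, Junb is a subunit of the transcription factor AP-1, and Ell2 is an elongation factor of RNA polymerase II. The promoters of Nr4a1, Junb and Ell2, which were higher together, follow here; capitals mark TGACG on either strand (CGTCA on the other strand), the core of the cAMP response element TGACGTCA. They lie at chr7:134259888-134260137, chr19:40080876-40081125 and chr2:6921602-6921851, all on the plus strand of GRCr8.

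Nr4a1: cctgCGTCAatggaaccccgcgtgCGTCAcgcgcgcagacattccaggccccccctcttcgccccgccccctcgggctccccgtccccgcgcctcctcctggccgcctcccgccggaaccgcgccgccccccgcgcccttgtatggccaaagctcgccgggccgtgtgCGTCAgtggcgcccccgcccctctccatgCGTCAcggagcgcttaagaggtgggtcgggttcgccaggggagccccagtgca

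Junb: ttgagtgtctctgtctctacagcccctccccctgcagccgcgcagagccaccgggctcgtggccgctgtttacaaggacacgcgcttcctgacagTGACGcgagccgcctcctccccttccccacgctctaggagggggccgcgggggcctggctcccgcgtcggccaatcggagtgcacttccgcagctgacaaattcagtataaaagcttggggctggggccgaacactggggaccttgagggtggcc

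Ell2: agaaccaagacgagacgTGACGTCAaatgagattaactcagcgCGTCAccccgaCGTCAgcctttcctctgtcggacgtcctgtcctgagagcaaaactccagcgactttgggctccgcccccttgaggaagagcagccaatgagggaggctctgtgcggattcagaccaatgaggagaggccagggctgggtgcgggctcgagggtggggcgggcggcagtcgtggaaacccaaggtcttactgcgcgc

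The windows held 4, 1 and 4 matches, and that of Ell2 the full TGACGTCA, in which 2 matches on opposite strands overlap. TGACG was found in 18.2% of all windows and TGACGTCA in 1.59%. Of the listed immediate early genes with a window 10 of 17 (58.8%) held TGACG. RT1-A1, which is not on that list, held 1 match as well. Of the 7 genes with a window among the 12 lower ones described below 0 did, too few windows to tell from the 18.2% of all. No window was given for Nr4a3.

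Nr4a1 in fibroblasts stood at 190.4 and 185 CPM in young and 678 and 664 CPM in old libraries. In macrophages it stood at 65.7 and 32.4 against 146 and 106 CPM, in NK cells at 183 and 76.1 against 323 and 219 CPM, and in endothelium at 403 and 242 against 743 and 545 CPM. The groups were far apart in fibroblasts, with replicates within a few percent of each other, and closer in NK cells. The log2 difference was 1.84 ± 0.29 in fibroblasts, 1.36 ± 0.39 in macrophages, 1.06 ± 0.46 in NK cells and 1.00 ± 0.39 in endothelium. Nr4a3 in fibroblasts stood at 70.6 and 35.1 against 385 and 294 CPM. In macrophages its young libraries held 40.1 and 4.30 CPM and in NK cells 67.7 and 4.70 CPM, so young replicate 2 was far below young replicate 1 while the old libraries held 61.8 to 113 CPM. Junb stood at 924 and 799 against 2109 and 2155 CPM in fibroblasts, and its difference in endothelium, 1472 and 1140.3 against 1756 and 2770.3 CPM, was smaller than the gap between the old replicates. Ell2 differed most in macrophages, at 100.4 and 57.5 against 314 and 308 CPM. The smallest adjusted p of these 4 genes by edgeR was 0.175, for Nr4a3 in fibroblasts, and none was called.

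Of 24 immediate early genes all were tested in fibroblasts, and 18 of them had both old libraries above both young (17.7% of all genes did) and 0 below. In macrophages 8 of 24 lay above and 3 below, in endothelium 6 and 1 of 21, and in NK cells 9 and 1 of 22, against 18.9%, 17.1% and 12.8% of all genes above. The median log2 difference was 0.96 in fibroblasts, 0.59 in NK cells, 0.43 in endothelium and 0.24 in macrophages. Fos, the AP-1 partner of the Jun proteins, stood at 1852 and 1103 against 3134 and 2752 CPM in fibroblasts and overlapped in endothelium. Jund had both old libraries below both young in 3 of the 4 classes, and Fosl1 and Myc in macrophages, with log2 differences of -0.73 and -0.72. By edgeR 0 members were called in any class, with 8, 5, 3 and 3 higher at an unadjusted p under 0.05 in fibroblasts, macrophages, endothelium and NK cells; DESeq2 called 6 in fibroblasts and 2 in macrophages. The summed level of the list ran from 8222 to 14475 CPM in young and from 17522 to 21165 CPM in old fibroblasts, and stood at 22030 and 27579 CPM in HFHF-old fibroblasts. In macrophages, endothelium and NK cells young replicate 1 lay within or above the range of the old libraries or between them, and young replicate 2 was the lowest library in each class. Heat shock and chaperone genes, another group that responds to handling, had 10 of 10 members tested above in fibroblasts, 7 of 10 in macrophages, 4 in NK cells and 0 in endothelium. Of all genes 17.7%, 18.9%, 12.8% and 17.1% lay above in that order.

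AABR07060872.1 and AABR07065625.1, gene models without another name, were higher in all 4 classes as well. The former stood at 499.9 and 49.6 CPM in young and 4908 and 5522 CPM in old macrophages, at 75.5 and 14.8 against 1979 and 1650.4 CPM in NK cells, and at 32.6 and 12.1 against 289 and 1529 CPM in fibroblasts. Both were by far highest in barcodes with at least 3 markers of B and plasma cells. There the former reached 79398 and 88845 CPM in young and 331612 and 456899 CPM in old libraries. Within a library the classes held at most 1.58% of that level for AABR07060872.1 and at most 1.67% for AABR07065625.1. Jchain, the joining chain of secreted antibodies, stood at 8.38 and 1.37 CPM in young and 69.3 and 33.2 CPM in old macrophages and at 0.812 and 1.74 against 37.8 and 12.4 CPM in NK cells. Summed B and plasma cell markers, 9 in the files, ran from 13.7 to 38.3 CPM in young and 121 to 125 CPM in old macrophages, from 6.65 to 9.95 against 20.7 to 60.0 CPM in NK cells, and overlapped in endothelium. The B and plasma cell transcripts thus moved with these genes, and their part was not tested.

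The other higher genes were at low levels. LOC100363537 stood at 10.6 and 15.1 CPM in young and 35.5 and 49.6 CPM in old fibroblasts, with log2 differences of 1.44 to 1.75 over the classes. LOC103690108 differed by 3.11 ± 0.59 in fibroblasts and 1.29 ± 0.46 in endothelium. AABR07044383.1 reached at most 20.0 CPM in any library. None of the 3 was called by edgeR, and HFHF-old libraries held 2.53 to 28.8 CPM of LOC100363537.

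**Figure D2:**
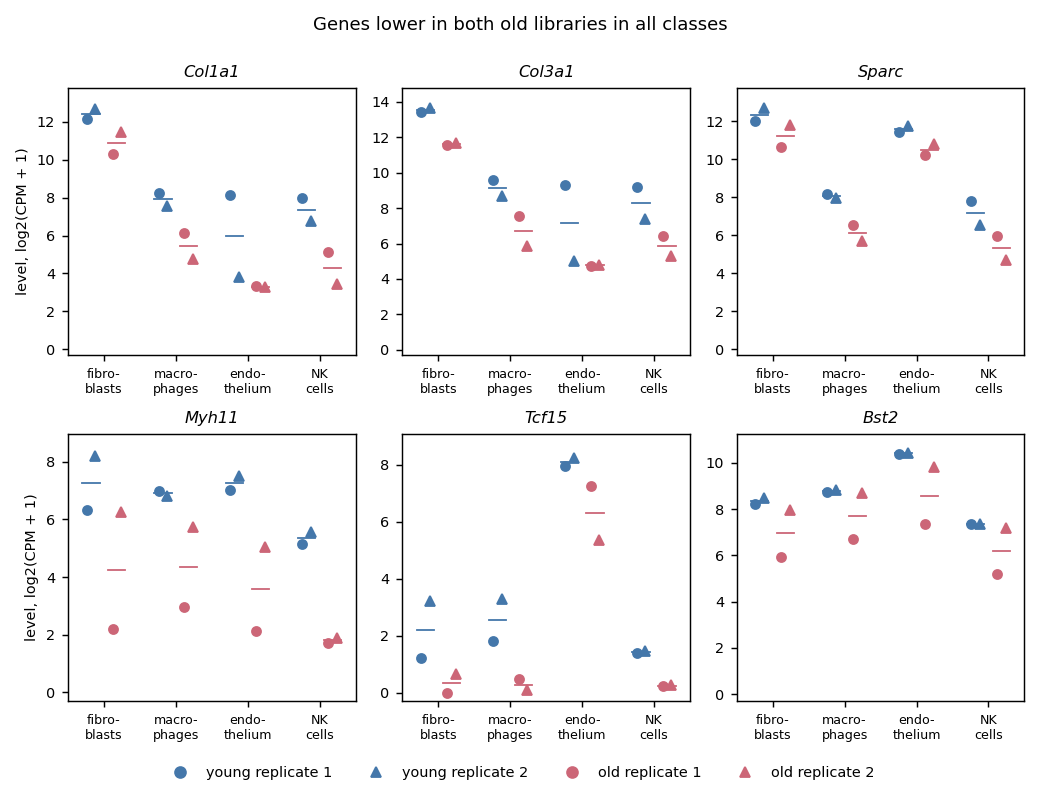
Level of 6 genes in each library (points; circles replicate 1, triangles replicate 2) by class, as log2(CPM + 1) with CPM scaled by TMM; short lines are the means of the 2 libraries of a group. Both old libraries lie below both young ones in each class; Col1a1 and Col3a1 are highest in fibroblasts and Tcf15 in endothelium, while the other classes hold a low level.

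Among the 12 genes below in all 4 classes, Col1a1, Col3a1 and Sparc are on the list of matrix genes. Col1a1 and Col3a1 encode chains of the fibrillar collagens, Sparc a collagen-binding glycoprotein, C1qtnf1 a secreted C1q-like protein and Ppic a cyclophilin that assists protein folding. Col1a1 and Col3a1 belong to the markers that chose the fibroblasts, and barcodes that met the whole fibroblast rule (3 or more markers and Ptprc at 0) were kept out of the other classes, so their values are given without a test. Col3a1 in fibroblasts stood at 11149 and 12826 CPM in young and 3088 and 3318 CPM in old libraries. Col1a1 stood at 4458 and 6485 against 1245 and 2773 CPM. Dcn, another fibroblast marker, stood at 10190.6 and 9565 against 12507 and 11146 CPM by total UMIs. A cell can enter the class through Dcn with little collagen, so nothing is read from the contrast between these markers.

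The same genes were lower outside fibroblasts. Col3a1 stood at 765 and 414 against 189.5 and 57.7 CPM in macrophages and at 583 and 167 against 83.8 and 38.3 CPM in NK cells, cells not known to make fibrillar collagen. In endothelium only young replicate 1 was high, with 640.2 CPM against 31.4 CPM in young replicate 2 and 25.7 and 26.7 CPM in the old libraries. Within a library Col1a1 in the other 3 classes amounted to 0.196% to 7.68% of its level in fibroblasts, Col3a1 to 0.239% to 7.86% and Dcn to 0.210% to 8.04%. In macrophages these shares were 7.68%, 7.86% and 8.04% in young replicate 1, and 2.43%, 2.67% and 2.86% in young replicate 2. In old replicate 1 they were 5.76%, 6.29% and 4.66%, and in old replicate 2 0.987%, 1.81% and 2.39%. The part of fibroblast RNA in these values was not tested directly.

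Sparc, which endothelium makes itself, stood at 4065 and 6637 against 1596 and 3521 CPM in fibroblasts and at 2809 and 3377 against 1174 and 1792 CPM in endothelium. In both classes the log2 difference was -1.06 (SE 0.65 and 0.50), with groups that did not overlap, and neither difference was called by edgeR (adjusted p = 0.886 and 0.8). Ppic stood at 157 and 244 against 112 and 115 CPM and C1qtnf1 at 344 and 239 against 155 and 146 CPM in fibroblasts. Of 30 collagen and matrix genes, Col1a1, Col1a2 and Col3a1 belong to the selection rule and were set aside. Of the other 27, 26 were tested in fibroblasts, of which 12 had both old libraries below both young (16.1% of all genes did) and 3 above. In macrophages 11 of 26 lay below and 4 above, in endothelium 12 and 0 of 19, and in NK cells 7 and 2 of 26, against 20.2%, 17.5% and 16.6% of all genes below. The median log2 difference was -0.29, -0.70, -0.90 and -0.99 in that order. Fbn1, the microfibril protein fibrillin, stood at 6892 and 5707 against 2709 and 3155 CPM in fibroblasts. Thbs1, a thrombospondin, had both old libraries above both young in 3 classes, with log2 differences of 1.43 in fibroblasts, 0.93 in macrophages and 1.71 in NK cells. None of the 27 was called by edgeR in any class, with 5, 5, 9 and 5 lower at an unadjusted p under 0.05, and DESeq2 called 2, 4, 1 and 0 lower.

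Myh11 and Pln, genes of muscle cells, were also among the genes below in all 4 classes. Myh11 is the heavy chain of smooth muscle myosin and Pln, phospholamban, restrains the calcium pump of muscle cells. Myh11 in NK cells stood at 34.4 and 45.7 CPM in young and 2.29 and 2.69 CPM in old libraries, a log2 difference of -4.0 ± 0.32 (edgeR adjusted p = 0.17). In macrophages it stood at 126 and 112 against 6.72 and 51.6 CPM, and in fibroblasts at 78.4 and 294 against 3.60 and 75.5 CPM, where the old replicates lay far apart. The gene was highest in barcodes of none of the classes, at 515 and 1053 CPM in young and 84.5 and 257 CPM in old libraries. Summed smooth muscle and pericyte markers, 8 in the files, ran from 282 to 311 CPM in young and 29.0 to 146 CPM in old macrophages and from 97.2 to 114 against 7.66 to 9.94 CPM in NK cells. In fibroblasts they overlapped, at 208 and 877 against 63.0 and 823 CPM. NK cells and macrophages are not known to make Myh11, and the part of free smooth muscle RNA was not tested. Of the 8 markers, which include Myh11 but not Pln, both old libraries lay below both young for 2 of 7 tested in fibroblasts (median log2 difference 0.02), 6 of 8 in macrophages (-1.56), 3 of 4 in endothelium (-2.91) and 5 of 5 in NK cells (-4.0), against 16.1%, 20.2%, 17.5% and 16.6% of all genes. By edgeR 0 were called in any class, with 1, 3, 3 and 5 lower at an unadjusted p under 0.05, and DESeq2 called 0, 2, 1 and 3.

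Among the other lower genes Tcf15, a transcription factor of capillary endothelium, stood at 244 and 299 CPM in young and 151 and 40.1 CPM in old endothelium, with at most 8.65 CPM in the other classes. The second feature of the files named Gnas (identifier ENSRNOG00000025889), the gene of the stimulatory G protein subunit, stood at 21.8 and 25.7 against 6.71 and 3.00 CPM in fibroblasts and at 19.7 and 19.9 against 2.23 and 3.34 CPM in endothelium. It was highest in secretory-rich barcodes, at 221 and 108 against 59.9 and 23.99 CPM. Bst2, tetherin, an interferon-induced antiviral protein, was lowest in old replicate 1 in every class. In macrophages it stood at 421 and 447 CPM in young, 103 CPM in old replicate 1 and 414 CPM in old replicate 2. In endothelium, where the log2 difference was -1.35, it stood at 1322 and 1393 against 162 and 905 CPM. The interferon response list, of which Bst2 is a member, had 1 gene above and 6 below of 27 in endothelium (median -0.31), 2 above and 4 below of 29 in fibroblasts (0.04), 10 and 2 of 29 in macrophages (0.25) and 4 and 3 of 29 in NK cells (0.14). Of all genes, 17.1%, 17.7%, 18.9% and 12.8% lay above and 17.5%, 16.1%, 20.2% and 16.6% below in that order. Map3k7cl and Klhl23 reached at most 26.8 and 12.2 CPM in any library of the 4 classes, with log2 differences of -4.54 to -1.94 and -3.10 to -0.78. Both were highest in barcodes of none of the classes. There Map3k7cl stood at 64.1 and 118 CPM in young and 6.86 and 31.8 CPM in old libraries, and Klhl23 at 33.3 and 30.9 against 5.51 and 15.1 CPM.

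**Figure D3:**
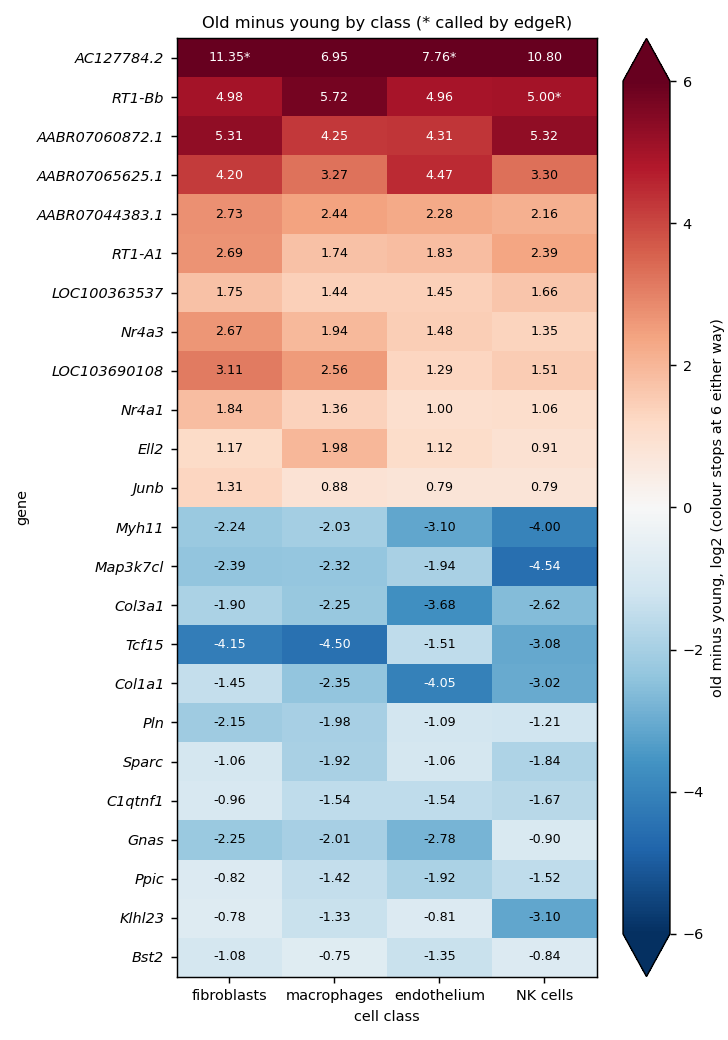
Old minus young difference (log2, from edgeR on TMM-scaled sums of 2 libraries per group) of the 24 genes in the 4 classes; red is higher and blue lower in old rats, colours stop at 6 either way, and an asterisk marks a call by edgeR. Only AC127784.2 in fibroblasts and endothelium and RT1-Bb in NK cells carry one; AC127784.2 runs from 6.95 to 11.35.

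The median difference over the classes kept its sign in all 16 or 17 alternatives for each of the 24 genes, but leaving out a library cannot turn the sign of a gene chosen for separated groups, so this is no sign of stability. In macrophages, where young replicate 2 stood apart, barcodes with over 20% secretory transcripts were also left out. The difference of RT1-Bb was then 5.61, of Nr4a1 1.47, of Col3a1 -2.02 and of Myh11 -1.96, against 5.72, 1.36, -2.25 and -2.03 with them.

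**Figure D4:**
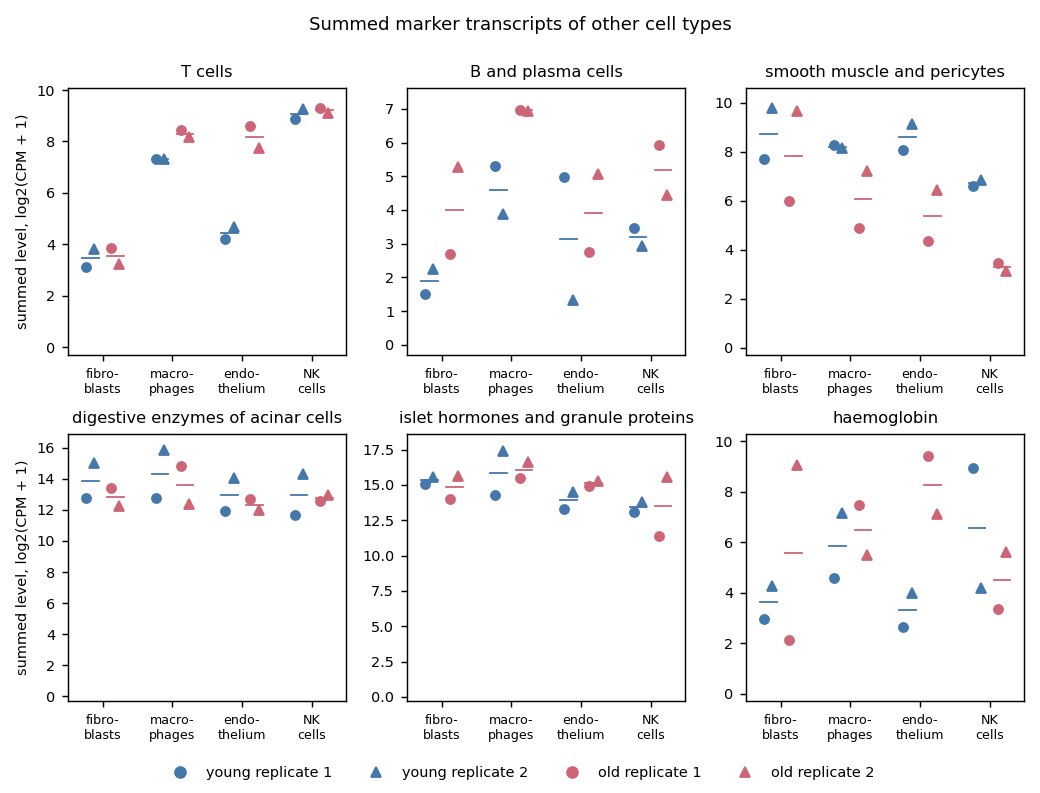
Summed level of marker lists of 6 other cell types within the 4 classes, as log2(CPM + 1) by total UMIs, one point per library (circles replicate 1, triangles replicate 2), with lines at the means. T cell markers are higher in both old libraries in macrophages and endothelium, B and plasma cell markers in macrophages, fibroblasts and NK cells; smooth muscle markers are lower in old macrophages, endothelium and NK cells.

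In endothelium the 11 genes called higher were mostly those of another cell type. They were Cd3d, Cd3e and Cd3g, chains of the T cell receptor complex, Cd8a, the co-receptor of cytotoxic T cells, Themis, which acts in T cell selection, Faslg, the Fas ligand, Ctsw, a protease of cytotoxic lymphocytes, the alpha-globin gene Hba-a2, the gene model AABR07017902.1, AC127784.2 and Mapt. Cd3e stood at 1.74 and 1.53 CPM in young and 54.7 and 32.3 CPM in old endothelium, and Themis at 0 and 0.765 against 88.2 and 20.0 CPM. By edgeR their adjusted p was 0.0249 and 0.0486. Summed T cell markers, 9 in the files, stood at 17.3 and 24.6 CPM in young and 390.3 and 211 CPM in old endothelium, against 158 to 159 and 286 to 347 CPM in macrophages. Hba-a2 stood at 1.74 and 3.82 against 469 and 92.4 CPM. The calls of Cd3e, Themis and Hba-a2 held in 9 of 15, 7 of 15 and 8 of 16 alternatives. Those of Cd3e and Themis were lost, among others, without young replicate 1 (log2 4.72 and 5.93) and without old replicate 1 (4.22 and 5.56), and that of Hba-a2 without young replicate 1 (6.15). Outside the classes, barcodes with at least 3 T cell markers made up 1.55% and 1.08% of the cells in young and 9.63% and 11.6% in old libraries. When barcodes with a UMI of Cd3d, Cd3e or Cd3g were left out, an alternative chosen after these values were seen, 0 endothelial genes were called. For Cd3d, Cd3e and Cd3g themselves this loss was fixed in advance by the removal. AABR07017902.1 then differed by 0.45 on the log2 scale, from 3.04, while Mapt differed by 3.34 (adjusted p = 0.0586), AC127784.2 by 7.61 and Hba-a2 by 7.04.

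Mapt encodes tau, which binds microtubules. It stood at 13.3 and 22.2 CPM in young and 155 and 147 CPM in old endothelium, with a log2 difference of 3.09 ± 0.35 (edgeR adjusted p = 0.0265), and at most 7.11 CPM in the other 3 classes. HFHF-old endothelium held 211 and 137 CPM. The call held in 11 of 17 alternatives and was lost without young replicate 1 (log2 2.76). The 2 genes called lower were Sox18, a transcription factor of vessel development, and Basp1, a membrane-bound signalling protein. Sox18 fell from 128 and 148 to 30.1 and 30.1 CPM (log2 -2.19 ± 0.30) and Basp1 from 27.2 and 34.4 to 2.23 and 2.23 CPM (log2 -3.72 ± 0.48), both with an edgeR adjusted p of 0.0486. Endothelium of old replicates 1 and 2 held 873614 and 952627 UMIs in all. The old values of Basp1 therefore rest on very few UMIs, and that they are equal shows no close replicates. The calls held in 8 of 17 and 4 of 15 alternatives. Without barcodes holding a Cd3 UMI the log2 differences were -2.14 and -4.44, and neither was called (edgeR adjusted p = 0.107 and 0.189). Both were lost without young replicate 1 (log2 -2.29 and -3.88) and without old replicate 1 (-2.19 and -3.72), and that of Basp1 also without old replicate 2 (-3.71). Basp1 overlapped between groups in the other 3 classes.

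Asb15, an adaptor of ubiquitin ligases, was the other gene called in fibroblasts. It stood at 0.383 and 0.378 CPM in young and 41.2 and 28.5 CPM in old fibroblasts, a log2 difference of 6.47 ± 0.38 (edgeR adjusted p = 0.00469). In macrophages it stood at 0.103 and 0.101 against 4.53 and 3.55 CPM and in NK cells at 0 and 0 against 4.09 and 3.93 CPM, and in endothelium it was too low to be tested. The old libraries lay above the young ones in each of the 3 classes, and DESeq2 called the gene in all 3. The HFHF-old rats differed from each other, with 0.296 CPM in replicate 1 and 55.8 CPM in replicate 2 in fibroblasts. The call held in 11 of 17 alternatives and was lost without young replicate 1 (log2 6.42) and without young replicate 2 (6.48).

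**Figure D5:**
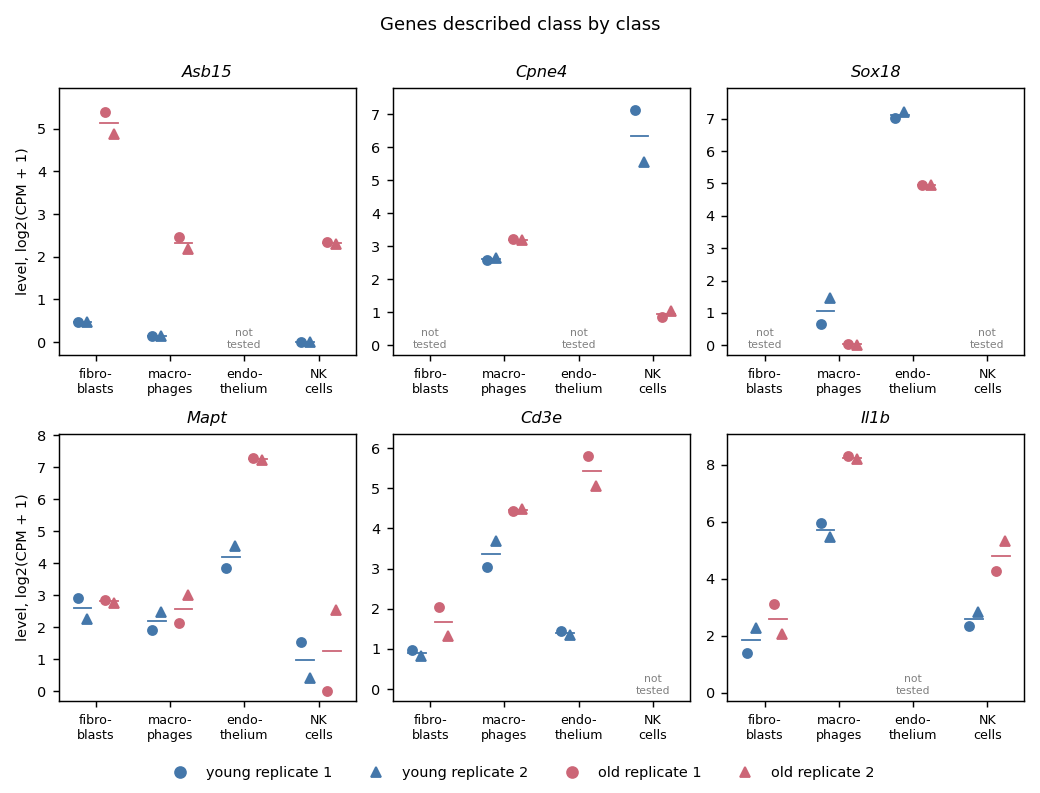
Level of 6 genes in each library (points; circles replicate 1, triangles replicate 2) by class, as log2(CPM + 1) with CPM scaled by TMM; short lines are group means. Asb15 is higher in old libraries of the 3 classes tested, Cpne4 is lower in old NK cells, at 0.817 and 1.04 CPM, and not in macrophages, and the differences of Sox18, Mapt and Cd3e are largest in endothelium.

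To ask whether the age difference itself differed between classes, the 16 sums of 4 rats and 4 classes were fitted together, with rat and class as terms. Of 14402 genes 1 was called (0.00694%), while 1652 (11.5%) had an unadjusted p under 0.05 and DESeq2 called 357. That gene was Cpne4, a calcium-dependent phospholipid-binding protein, with an edgeR adjusted p of 0.00303. In NK cells it stood at 138 and 45.7 CPM in young and 0.817 and 1.04 CPM in old libraries, and in macrophages at 4.998 and 5.21 against 8.35 and 8.04 CPM. It was too low to be tested in the other 2 classes. HFHF-old NK cells held 66.5 and 255 CPM, so the low level was not one of all rats of 20 months. The next genes in order were Mkl1, Emid1, Ifng, Prkcq and Cdh13, with adjusted p of 0.0710 for Mkl1 and 0.0820 for the other 4, not called. Emid1, for example, stood at 6.87 and 7.08 CPM in young and 0.680 and 0.873 CPM in old macrophages and at 171 and 174 against 176 and 151 CPM in endothelium. Cdh13, an adhesion protein, stood at 12.4 and 6.0985 against 178 and 36.6 CPM in NK cells and at 1054 and 679.9 against 810.4 and 483 CPM in endothelium.

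Proliferation genes had negative median differences in all 4 classes. Of 24 genes, 11 of 19 tested in fibroblasts, 12 of 23 in macrophages, 5 of 9 in endothelium and 10 of 23 in NK cells had both old libraries below both young (16.1%, 20.2%, 17.5% and 16.6% of all genes did), and 0 lay above in any class. The median log2 difference was -2.28 in fibroblasts, -0.74 in macrophages, -0.37 in endothelium and -0.54 in NK cells. Mki67, the antigen Ki-67 of cycling cells, stood at 7.93 and 36.3 CPM in young and 1.20 and 0.562 CPM in old fibroblasts. Cenpf, a centromere protein, stood at 9.002 and 68.4 against 0.200 and 1.12 CPM. In both cases young replicate 2, with 387 fibroblasts, was the highest library. The summed list overlapped between groups in fibroblasts, at 322 and 746 CPM in young and 275 and 324 CPM in old libraries. No member was called by edgeR, and 10, 6, 3 and 4 were lower at an unadjusted p under 0.05 in the same order of classes; DESeq2 called 6 in fibroblasts and 1, Cenpf, in endothelium.

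Among genes of inflammatory signalling, Il1b, the cytokine interleukin-1 beta, stood at 61.1 and 42.7 CPM in young and 313 and 290.0 CPM in old macrophages, a log2 difference of 2.54 ± 0.27 (edgeR adjusted p = 0.247). In NK cells it stood at 4.06 and 6.0985 against 18.3 and 39.1 CPM. Of 24 genes of inflammatory signalling, 8 of 24 tested in macrophages had both old libraries above both young and 0 below, against 18.9% and 20.2% of all genes. In fibroblasts the counts were 7 and 1 of 21 (17.7% and 16.1% of all) and in endothelium 7 and 1 of 17 (17.1% and 17.5%). In NK cells they were 3 and 2 of 20, near the 12.8% and 16.6% of all genes. No member was called by edgeR, and 5, 2, 5 and 2 were higher at an unadjusted p under 0.05 in macrophages, fibroblasts, endothelium and NK cells. DESeq2 called 2, 1, 2 and 1 higher in the same order. In endothelium its members with the largest differences included the chemokines Ccl5 (log2 2.86), Ccl4 (2.62) and Ccl3 (1.82), named after their values were seen, and lymphocytes are known to make these. T cell markers there stood at 17.3 and 24.6 against 390.3 and 211 CPM, and their part in this count was not tested.

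On the list of complement genes, C3, the central complement protein, stood at 4.29 and 2.27 against 13.6 and 81.6 CPM in fibroblasts and at 7.74 and 15.1 against 117 and 27.9 CPM in macrophages. Of 20 complement genes, C1qa, C1qb and C1qc belong to the rule that chose the macrophages and were set aside. Of all genes tested in fibroblasts, macrophages, endothelium and NK cells, 17.7%, 18.9%, 17.1% and 12.8% lay above and 16.1%, 20.2%, 17.5% and 16.6% below. Of the other 17 complement genes, 9 of 14 tested in fibroblasts had both old libraries above both young and 1 below (median log2 difference 0.65), against 5 and 1 of 15 in macrophages (0.29), 0 and 1 of 8 in endothelium (-0.33) and 2 and 1 of 10 in NK cells (-0.09). None was called by edgeR. At an unadjusted p under 0.05, 5 were higher and 1 lower in fibroblasts, 4 and 1 in macrophages, 0 and 1 in endothelium and 0 and 0 in NK cells, and DESeq2 called 3 higher in fibroblasts and 3 in macrophages.

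Genes of energy metabolism and of protein synthesis were examined next. Of 27 nuclear genes of oxidative phosphorylation 24 were in the files, Ndufv3 and Uqcrb as 2 features each. In fibroblasts 25 such features were tested and gave a median log2 difference of 0.10 with 0 above and 0 below, and the medians in the other classes ran from -0.27 to 0.18, the lowest in endothelium, where 2 of 24 tested were positive. Of the 13 genes of the mitochondrial genome 0 were positive in fibroblasts (median -0.30) and 0 in endothelium (-0.44), and 2 and 6 of them had both old libraries below both young (16.1% and 17.5% of all genes did). In macrophages and NK cells their medians were -0.08 and -0.08. Cytosolic ribosomal protein genes had medians of -0.03 to 0.02 in macrophages, endothelium and NK cells and of 0.48 in fibroblasts, where 13 of 30 features lay above (17.7% of all genes did) and 0 below. Genes of senescence and growth arrest went both ways, with 6 above and 5 below of 17 in fibroblasts (17.7% and 16.1% of all genes) and 0 and 6 of 16 in endothelium (17.1% and 17.5%), medians of -0.12 and -0.30. By edgeR 0 members of these 4 lists were called in any class. At an unadjusted p under 0.05 the senescence list had 2 higher and 2 lower in fibroblasts, 2 and 2 in macrophages, 0 and 3 in endothelium and 0 and 2 in NK cells. At the same limit 3 mitochondrial genes were lower in endothelium, 1 gene of oxidative phosphorylation was higher in fibroblasts, and 1 ribosomal protein gene was higher in fibroblasts and 1 lower in endothelium. Of the senescence list DESeq2 called 1 higher and 1 lower in fibroblasts, 1 and 1 in macrophages, 0 and 1 in endothelium and 0 and 0 in NK cells.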

How the data were processed

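Droplet-based 3′ single-cell RNA-seq libraries of 6 rats were deposited as filtered matrices of UMI counts per gene and barcode, which the authors made with Cell Ranger on the rat assembly Rnor_6.0. The file headers give version 5.0.0; the study's methods name a later one. The sources used here name no ambient RNA or doublet correction. Barcodes with at least 200 genes and at most 25% mitochondrial UMIs were kept, and the 1% with the most genes over all 6 libraries (6332 or more) were left out. No doublet caller was run; barcodes meeting several class rules were left out, and leaving out large barcodes was an alternative.

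Counts were summed per rat and class for the 4 young and old libraries, filtered with filterByExpr, scaled by TMM and tested with the quasi-likelihood test of edgeR 4.0.16 (R 4.3.3), each class on its own, with Benjamini-Hochberg adjustment over all its genes. One fit of rat, class and class by age over all sums tested the interaction. Alternatives were DESeq2 1.42.0, other scalings, filters, class limits and samples, and leaving out each library. Class members and gene lists were chosen with earlier results of these data known. Genes were named by call in at least 2 classes, then by separation in all 4 classes, by largest called fold change per class, by smallest interaction p, and as list examples; RT1-Ba, Cd74, RT1-A2, Tap1, Psmb8, B2m, Fos, Jund, Dcn, Fbn1, Thbs1, Faslg, Ctsw, Mapt and AABR07017902.1 were added after their values were seen. On simulated counts a log2 change of 2 was recovered in 55% of changed genes in fibroblasts, 38% in macrophages, 66% in endothelium and 42% in NK cells, and a log2 change of 1 in 2%, 5%, 11% and 2%. In the same simulations, with 100 genes changed by each size in a class, 9, 2, 9 and 6 unchanged genes were called. Under the adjustment false calls can grow with the number of true ones. These counts can therefore not be set against the 2, 0, 13 and 1 calls in the data. Of promoter sequences, RefSeq windows of build GRCr8 were matched by symbol.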

Additional observations from a re-analysis of the deposited data

Results flagged for a closer look

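The age difference of Cpne4 differed between classes in the fit over all 4 classes (edgeR quasi-likelihood test of the interaction, adjusted p = 0.00303). The log2 difference was -6.62 ± 0.71 in NK cells and 0.68 ± 0.26 in macrophages, the 2 classes in which it was tested. Both old libraries lay below both young ones in NK cells and above them in macrophages. The call was lost with barcodes of several classes kept and with free RNA subtracted. Leaving out 1 library at a time, the interaction called 2 genes without young replicate 1, 1 without young replicate 2, 4 without old replicate 1 and 0 without old replicate 2.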

How the results depend on the processing

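Calls are given for fibroblasts, macrophages, endothelium and NK cells in turn, then genes called higher alike, lower alike, and by the interaction, where the reported counts were 2, 0, 13, 1, 1, 0 and 1. DESeq2 gave 140, 243, 47, 57, 26, 16 and 357. Without a filter on low counts they were 3, 1, 0, 1, 1, 0 and 16, with the older quasi-likelihood method 2, 0, 6, 1, 0, 0 and 3, and with all 6 libraries in the fit 1, 1, 0, 5, 1, 0 and 1. With barcodes of several classes kept they were 0, 0, 1, 1, 0, 0 and 0, with at least 4 markers 2, 0, 26, 1, 1, 0 and 1, with secretory transcripts up to 20% 3, 0, 15, 1, 1, 0 and 7, and with free RNA subtracted 0 throughout. That subtraction used the summed profile of all kept cells of a library, scaled by secretory transcripts. The share set for removal ran from 7.52% (NK cells of old replicate 1) to 85.0% (macrophages of young replicate 2). It therefore also took out RNA of the class itself, and the lost calls do not measure free RNA. With large barcodes left out they were 0, 1, 12, 0, 1, 0 and 12, without limits on cells 2, 0, 6, 1, 0, 0 and 2, and without barcodes holding a Cd3d, Cd3e or Cd3g UMI, a choice made after seeing the data, 2, 1, 0, 1, 1, 0 and 1. RLE size factors changed no count. Leaving out 1 library at a time gave 0 to 202, 0, 0 to 191, 0 to 14, 0 to 5, 0, and 0 to 4. The causes were not tested. No gene called within a class changed direction there. For the 24 genes named for several classes only the median over the classes was recomputed, and it kept its sign, which for leave-outs follows from how these genes were chosen; medians and counts of the gene lists were not recomputed under the alternatives.

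With the replicate number as a block the counts were 2, 0, 89, 0, 0 and 1, the last being Cenpf, and the interaction was not fitted with it. Same-numbered samples deviated together with correlations of 0.170 to 0.231, but with only 2 pairs of unrelated rats the numbers do not pair the samples. With 2 rats per group, log2 changes of 1 were mostly missed in simulated counts, so a gene that was not called may still differ.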
